A study of Mus musculus with 3 samples.

Results

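The cells described here are Myh11-positive vascular smooth muscle cells of the mouse knee, 1168 of the 30197 cells of a single-cell RNA-seq study of synovium and fat pad. They were chosen on raw counts of unique molecular identifiers (UMIs, each marking 1 captured transcript). A member had at least 5 UMIs of Myh11, at least 20 of Acta2, and none of Ptprc, Cdh5 or Pdgfra, which mark leukocytes, endothelium and fibroblasts. A barcode was taken as a cell where 500 or more genes were read and mitochondrial UMIs did not pass 10%. The levels of Myh11 and Acta2, and whatever travels with them, were therefore fixed by the choice and are given as a description.

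The study compared knee tissue of wild-type mice before and after destabilization of the medial meniscus (DMM), a surgical model of osteoarthritis. Control mice were sampled at 2 months of age, and the other mice had DMM at 2 months of age and were sampled 1 week or 2 months later. Each group was 1 10x Genomics library made from the pooled tissue of 5 to 10 mice, digested with trypsin and collagenase I and sorted for live cells. Single mice could not be told apart within a pool, the mice sampled 2 months after DMM were also older than the controls at harvest, and no sham-operated library was analysed here. With 1 library per group there is no test between conditions: ratios between groups are given with 95% intervals that cover counting error only.

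Vascular smooth muscle cells form the contractile wall of arteries, arterioles and larger venules and set vessel diameter. A rise in cytosolic calcium activates myosin light chain kinase, and the myosin encoded by Myh11 then pulls on filaments of the actin encoded by Acta2. Serum response factor with its partner myocardin drives many of these contractile genes by binding CArG boxes in their promoters. Smooth muscle cells of injured vessels are known to lower contractile genes and to make more matrix and divide, a state called synthetic. Pericytes, the related mural cells of capillaries, carry little Myh11 and high Rgs5, a regulator of G protein signalling.

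The control library gave 618 members of 8099 cells, the 1-week library 213 of 12316 and the 2-month library 337 of 9782. Members held a median of 8021.5 UMIs in control, 11537 at 1 week and 11802 at 2 months, and their summed UMIs were 5100331, 2765313 and 4400962 in the same order. Passing barcodes shared between pairs of libraries numbered 21 to 30, and none was a member in both libraries of a pair. Xist was read at 36.8 CPM (UMIs of the gene per 1000000 UMIs of the summed members) in the 2-month members and at 0 UMIs in the control and 1-week members, while the Y-linked Ddx3y was read at 91.8 to 123 CPM in all 3 libraries. Over all cells Xist stood at 0.105, 0.0573 and 54.0 CPM in the control, 1-week and 2-month libraries. The labels used here give no sex, but by this transcript of female cells the 2-month pool differed from the others. Any effect of sex cannot be told apart from the condition.

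The 5 marker genes of the label are given as a description, since Myh11 and Acta2 made the choice. Myh11 lies on chr16:14194535-14291372 and Acta2 on chr19:34241090-34255590, both on the minus strand of GRCm38. Lmod1, whose leiomodin protein starts actin filaments, lies on chr1:135324807-135368065, Pln, the phospholamban brake on the calcium pump of the sarcoplasmic reticulum, on chr10:53337667-53345987, and Nrip2 on chr6:128399296-128416427, all on the plus strand. Lmod1, Pln and Nrip2 were not used by the choice. Lmod1 was 51.3, 80.5 and 85.7 times higher in members than in all other cells of the control, 1-week and 2-month libraries, and Pln was 65.6, 145 and 111 times higher. With each cell thinned to 5000 UMIs, Lmod1 was detected in 97.4%, 58.3% and 93.9% of control, 1-week and 2-month members, against 2.60%, 0.334% and 0.831% of endothelial cells, whose median UMI counts were 7736, 10511 and 11724. Pln was detected in 82.5%, 18.9% and 54.5% of members in the same order. Ranked by the lowest of the 3 ratios, the 12 genes highest over all other cells in every library were Pln, Cnn1, Map3k7cl, Lmod1, Myh11, Nrip2, P2rx1, Tagln, Kcnab1, Kcnk3, Olfr558 and Tesc. Myh11 stands in this ranking by the choice. Nrip2 was 55.3, 48.7 and 78.7 times higher in members than in all other cells, and was detected in 88.2%, 48.1% and 62.7% of thinned members. Lmod1, Pln and Nrip2 therefore stood above all other cells in every library, and the 1-week members carried them at lower levels. Lmod1 and Pln went with Myh11 across thinned members, so these values are no test of the label. Pln and Nrip2 were also detected in a smaller share of members at 2 months than in control.

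The gate cut through a continuum at its low end. Cells with exactly 5 UMIs of Myh11, just inside, numbered 11, 20 and 11 in control, 1-week and 2-month libraries, and had median Rgs5 counts of 1, 43.5 and 41 UMIs. Cells with 4 UMIs that met every other rule numbered 12, 20 and 11, with median Rgs5 counts of 11.5, 71 and 47 UMIs. RNA of other cell types was present at low levels: summed endothelial markers without Cdh5 were 238, 336 and 205 CPM in control, 1-week and 2-month members, and macrophage markers 494, 149 and 199 CPM. Fibroblast markers, with Pdgfra at 0 by the gate, summed to 4948, 2538 and 2306 CPM, led by Prg4 in control and at 2 months and by Col1a1 at 1 week, and neutrophil markers to 103, 86.4 and 227 CPM. Hemoglobin and other erythroid genes summed to 1424, 43.8 and 1723 CPM, and the lubricin gene Prg4, which synovial lining fibroblasts make, stood at 4323, 256 and 1299 CPM in members against 37306, 5504 and 34319 CPM in all other cells. Adipocyte markers summed to 5.49, 0 and 0.682 CPM. The part of this foreign RNA in the differences below was not tested.

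Members made up 1.73% of cells at 1 week (exact binomial interval 1.51% to 1.98%) and 3.45% at 2 months (3.09% to 3.83%), against 7.63% in control (7.06% to 8.23%). The 1-week share was 0.227 times the control share (0.194 to 0.264) and the 2-month share 0.451 times (0.397 to 0.514). Thinned to equal depth and gated at 3 UMIs of Myh11 and 10 of Acta2, the shares were 8.80%, 1.69% and 4.05% in control, 1-week and 2-month libraries. Members carried more mitochondrial UMIs than cells as a whole, with medians of 4.92%, 4.68% and 6.03% in members against 1.79%, 3.51% and 3.41% in all cells. With a floor of 1000 genes per cell and a ceiling of 5% on mitochondrial UMIs, the 2-month share was 0.291 times the control share and 1.06 times the 1-week share, so the higher share at 2 months than at 1 week depended on that filter. A share of sorted cells also moves with the yield of every other cell type, which was not measured.

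**Figure D1:**
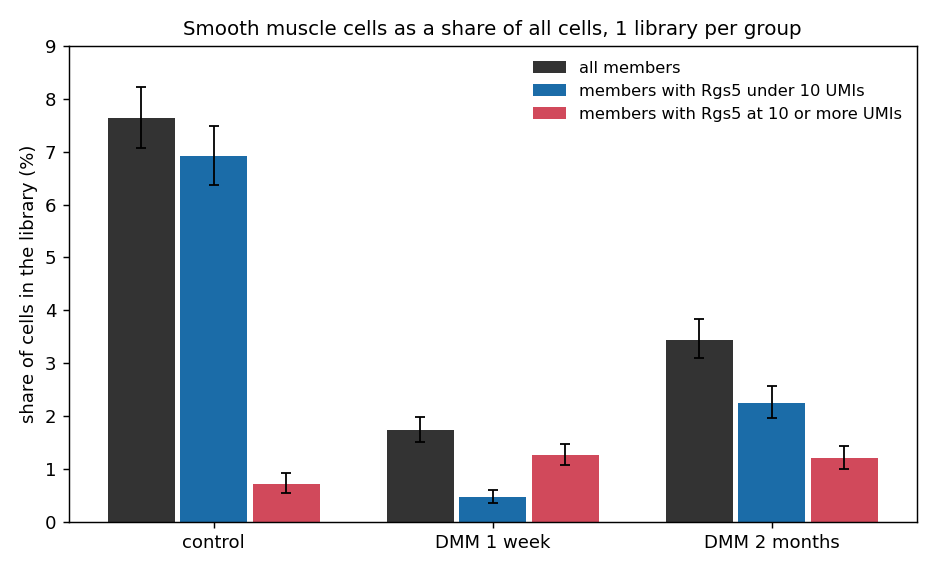
Members as a percentage of all cells in each library (vertical axis), for all members and for members below or at 10 or more Rgs5 UMIs; error bars are exact 95% binomial intervals. All members stand at 7.63% in control, 1.73% at 1 week and 3.45% at 2 months, while members with 10 or more Rgs5 UMIs stand at 0.716%, 1.26% and 1.20%.

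The members were not of 1 kind, and Rgs5 (chr1:169655501-169695813, plus strand) divided them. The median member held 0 Rgs5 UMIs in control, 58 at 1 week and 1 at 2 months, and the highest held 82, 370 and 331. Summed over members, Rgs5 stood at 421, 5750 and 2488 CPM in control, 1-week and 2-month members. The 14 pericyte markers, Rgs5 among them, summed to 3055, 9198 and 5074 CPM in the same members. The 11 smooth muscle markers, Myh11 and Acta2 among them, summed to 25630, 12667 and 19498 CPM. The name smooth muscle thus fits the 1-week members less well than those of control. A division at 10 UMIs, chosen after the values were seen, left 58 of 618 control members (9.39%, interval 7.2% to 12%), 155 of 213 at 1 week (72.8%, 66.3% to 78.6%) and 117 of 337 at 2 months (34.7%, 29.6% to 40.1%) in the upper range. Between 5 and 19 UMIs lay 63, 14 and 27 members of the 3 libraries. After thinning to equal depth, 29.9%, 80.1% and 47.9% of members held an Rgs5 UMI in control, 1-week and 2-month libraries, against 5.86%, 6.52% and 6.23% of endothelial cells.

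The ranges moved in opposite directions as shares of all cells. Members under 10 Rgs5 UMIs were 0.471% of cells at 1 week and 2.25% at 2 months, against 6.91% in control. Members with 10 or more were 1.26% and 1.20% after DMM, against 0.716% in control, ratios of 1.76 and 1.67. The lower overall share of members after DMM was thus seen in cells with little Rgs5 and not in the upper range. Every difference between whole groups of members also mixes these ranges in different proportions, so values within the ranges are given beside those of all members for several groups of genes. Lining fibroblast RNA also differed within the upper range: Prg4 stood at 11952, 133 and 530 CPM in its control, 1-week and 2-month members, Clic5 at 398, 0.938 and 5.01 CPM and Htra4 at 190, 7.03 and 21.9 CPM. Every ratio to control within the upper range stands beside that difference, whose part in it was not tested.

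**Figure D2:**
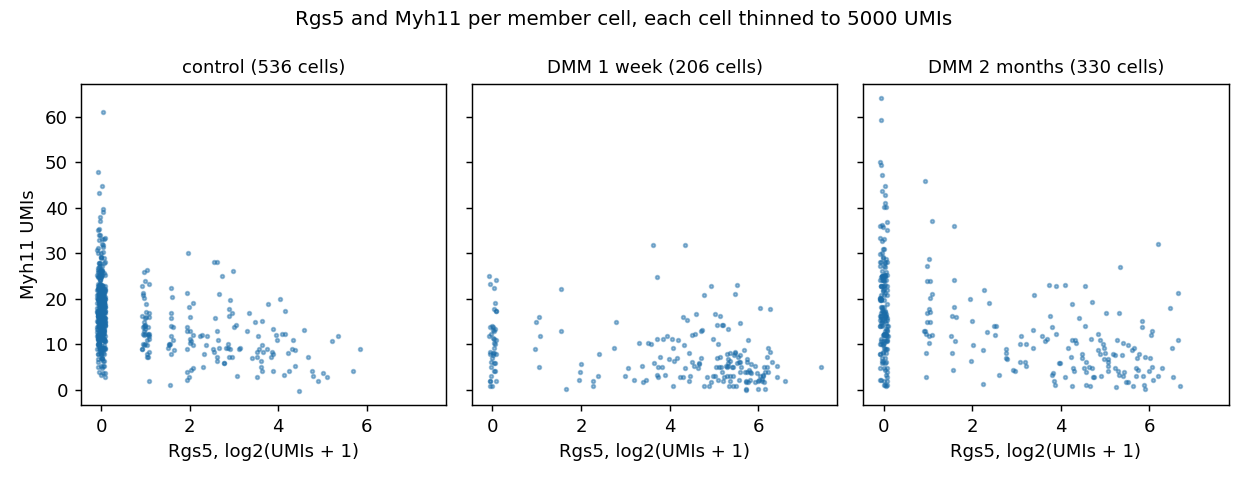
Rgs5 (horizontal axis, log2 of UMIs + 1) against Myh11 (vertical axis, UMIs) in single members thinned to 5000 UMIs, for 536 control, 206 1-week and 330 2-month cells; each point is 1 cell, shifted slightly at random so that ties are visible. Control members crowd at 0 Rgs5, the 1-week members gather at high Rgs5 and low Myh11, and the 2-month members hold both crowds.

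Across single thinned members, Rgs5 went against Lmod1 and Tagln, contractile genes that the choice did not use, but not against Actg2. Its Spearman correlation with Lmod1 was -0.36, -0.41 and -0.45 in control, 1-week and 2-month members, and with Tagln, the actin-binding transgelin, -0.55, -0.49 and -0.65. With Actg2 it was 0.18, 0.023 and -0.017. Rgs5 went with the pericyte gene Higd1b at 0.25, 0.40 and 0.54, and with the Notch receptor gene Notch3 at 0.25, 0.27 and 0.49. With the pericyte gene Kcnj8 the relation was weaker, at 0.12, 0.18 and 0.20. Nrip2 showed almost no relation, at -0.044, -0.075 and -0.047. These are descriptions over 536, 206 and 330 cells that share a library each. Ranked by variance over mean after thinning, the most variable of 1436 genes were Prg4, Mgp, Malat1, Spp1, Rgs5 and Acta2, of which Prg4 was far higher outside the members.

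Contractile genes were lower 1 week after DMM and close to control at 2 months. Of 28 contractile genes measured, 13 were at least 2-fold lower and 3 at least 2-fold higher at 1 week than in control, with a median log2 ratio of -0.83. Over all 9539 genes measured in that comparison, 10.7% were at least 2-fold lower and 10.7% at least 2-fold higher, with a median of -0.01. At 2 months none of the 28 was 2-fold lower and 3 were higher (median -0.11), where 2.85% of 9914 genes were 2-fold lower and 5.69% higher. Of all genes, 21.4% at 1 week and 8.54% at 2 months were past 2-fold in either direction. Set against 1 week, 12 of the 28 were at least 2-fold higher at 2 months and 0 lower, where 6.54% of 9355 genes were higher, 5.27% lower and 11.8% either. The list includes Myh11 and Acta2, whose levels the gate touched.

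Lmod1 stood at 1012, 282 and 930 CPM in control, 1-week and 2-month members, 0.279 times control at 1 week (0.259 to 0.301) and 0.920 times at 2 months. Tagln stood at 14084, 6628 and 12175 CPM, a ratio of 0.471 at 1 week. The tropomyosin gene Tpm2 was 0.424 times control at 1 week and 0.932 times at 2 months. Both of these genes were low at 1 week and near control at 2 months. Myl9, the regulatory light chain of smooth muscle myosin, stood at 9492, 2392 and 4928 CPM and was still 0.519 times control at 2 months. Nrip2 stood at 650, 157 and 261 CPM and Myh11 itself at 3259, 1387 and 3079 CPM.

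Part of the 1-week difference went with the Rgs5 ranges. In members under 10 Rgs5 UMIs, 5 of 28 contractile genes were at least 2-fold lower and 3 higher at 1 week (median -0.56). Of 8176 genes there, 11.1% were lower and 6.27% higher. In members with 10 or more, 4 of 27 were lower and 1 higher (median -0.26), where 6.69% of 6410 genes were lower and 8.46% higher. At 2 months 5 of 28 were at least 2-fold higher than in control and 0 lower in the lower range, where 3.98% of genes were higher and 3.01% lower. In the upper range 2 of 28 were higher and 0 lower, where 4.2% were higher and 2.32% lower. Set against 1 week, 4 of 28 were higher at 2 months and 0 lower in each range, where 5.46% and 5.1% of genes were higher and 3.4% and 4.43% lower in the lower and upper range. Lmod1, Pln, Myl9 and Kcna5 were below control at 1 week in both ranges. Calponin Cnn1 was 0.717 times control at 1 week over all members, and above control in each range taken alone.

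A few actin-cytoskeleton genes went the other way. Actg2, the gamma smooth muscle actin of gut and bladder wall, stood at 47.4, 452 and 431 CPM in control, 1-week and 2-month members, 9.53 times control at 1 week (8.30 to 11) and 9.07 times at 2 months. Actg2 was higher in both ranges: at 36.5, 288 and 507 CPM below 10 Rgs5 UMIs and at 133, 501 and 296 CPM at or above it. The focal adhesion gene Vcl, vinculin, was 2.02 times control at 1 week and 1.67 times at 2 months. Fhl2, a LIM protein that binds serum response factor, was 2.67 and 3.13 times control.

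The promoters of Myl9, which was lower after DMM, and Vcl, which was higher, are shown because both hold a CArG box within 250 bases before the start site; that of Acta2 is shown as the gate gene. The windows run from 250 bases before to 50 after the RefSeq start site on GRCm38.p6, 5′ to 3′ on the gene's strand, with a CArG box in capitals. They are chr2:156775214-156775513 (plus strand) for Myl9, chr14:20929148-20929447 (plus) for Vcl and chr19:34255324-34255623 (minus) for Acta2.
Myl9: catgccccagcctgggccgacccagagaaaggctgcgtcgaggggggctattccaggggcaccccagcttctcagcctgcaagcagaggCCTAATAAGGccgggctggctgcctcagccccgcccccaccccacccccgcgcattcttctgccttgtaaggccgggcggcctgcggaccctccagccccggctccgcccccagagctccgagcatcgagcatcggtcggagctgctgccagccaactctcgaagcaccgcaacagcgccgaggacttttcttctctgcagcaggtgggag
Vcl: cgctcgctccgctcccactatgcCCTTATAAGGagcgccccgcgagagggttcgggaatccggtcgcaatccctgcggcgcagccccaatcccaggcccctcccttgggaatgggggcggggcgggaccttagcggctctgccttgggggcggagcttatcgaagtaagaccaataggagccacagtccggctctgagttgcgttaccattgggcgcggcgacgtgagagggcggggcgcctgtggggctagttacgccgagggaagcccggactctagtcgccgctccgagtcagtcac
Acta2: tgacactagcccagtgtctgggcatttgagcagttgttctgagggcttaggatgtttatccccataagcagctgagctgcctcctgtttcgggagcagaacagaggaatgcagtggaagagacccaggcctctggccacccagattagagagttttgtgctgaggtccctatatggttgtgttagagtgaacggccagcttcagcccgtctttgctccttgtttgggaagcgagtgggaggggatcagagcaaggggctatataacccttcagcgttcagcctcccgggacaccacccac

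The CArG box of Myl9 starts 161 bases before the start site and that of Vcl 227 bases before it. A match to this strict form on 1 strand is also a match on the other, though the letters of the box can differ. A box was found for 7 of the 24 contractile genes with a promoter entry (29.2%), Myl9, Vcl, Ldb3, Myl6, Filip1l, Fhl1 and Fhl2, and for 488 of all 27025 genes (1.81%). Of the calcium-handling genes 1 of 20 held a box, of the ion channel genes 0 of 15 and of the matrix genes 0 of 24. The Acta2 window holds no strict match, which says only that these letters are not in it.

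Genes of calcium handling and membrane excitability were also lower at 1 week. Of 27 calcium-handling genes 9 were at least 2-fold lower and 1 higher at 1 week (median -0.77), and 3 lower and 0 higher at 2 months (median -0.11). The shares over all genes were 10.7% lower and 10.7% higher at 1 week, and 2.85% and 5.69% at 2 months. Pln stood at 685, 116 and 469 CPM in control, 1-week and 2-month members, 0.170 times control at 1 week (0.151 to 0.191). The ryanodine receptor gene Ryr2, a calcium release channel, stood at 43.5, 10.8 and 40.4 CPM, and the calcium-storing calsequestrin gene Casq2 at 122, 49.2 and 41.1 CPM. Ryr2 was low only in the 1-week library, and Casq2 was low in both libraries after DMM. The T-type calcium channel gene Cacna1h was 0.162 times control at 1 week and 0.427 times at 2 months.

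Of 17 ion channel genes, 9 were at least 2-fold lower and 4 at least 2-fold higher at 1 week (median -1.05). Below 10 Rgs5 UMIs 5 of 16 were lower and 1 higher (median -0.20), and at or above it 2 of 12 lower and 1 higher (median -0.59). Beside these, 10.7% of all genes were lower and 10.7% higher in all members. In the lower range 11.1% were lower and 6.27% higher, and in the upper 6.69% and 8.46%. Kcna5, a voltage-gated potassium channel, stood at 121, 11.6 and 35.7 CPM in control, 1-week and 2-month members, 0.0955 times control at 1 week (0.0647 to 0.136). The inward rectifier Kcnj12 was 0.0662 times control at 1 week and 0.336 times at 2 months, and the large-conductance channel Kcnma1 0.169 and 0.747 times. These channels let potassium leave the cell and so oppose contraction. Kcnj8 and Abcc9, the pore and sulfonylurea subunits of the vascular ATP-sensitive potassium channel, were 2.53 and 3.53 times control at 1 week and 2.13 and 3.0 times at 2 months. Both are pericyte markers and were read more in the upper Rgs5 range. There Kcnj8 stood at 111, 97.0 and 108 CPM in control, 1-week and 2-month members and Abcc9 at 116, 153 and 174 CPM. In the lower range Kcnj8 stood at 22.8, 34.8 and 48.1 CPM and Abcc9 at 25.9, 39.6 and 71.0 CPM. All but Kcnj8 in the upper range were thus read above control after DMM within each range. At 1 week the lower-range values rest on 22 UMIs of Kcnj8 and 25 of Abcc9, so a difference from control there is uncertain.

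**Figure D3:**
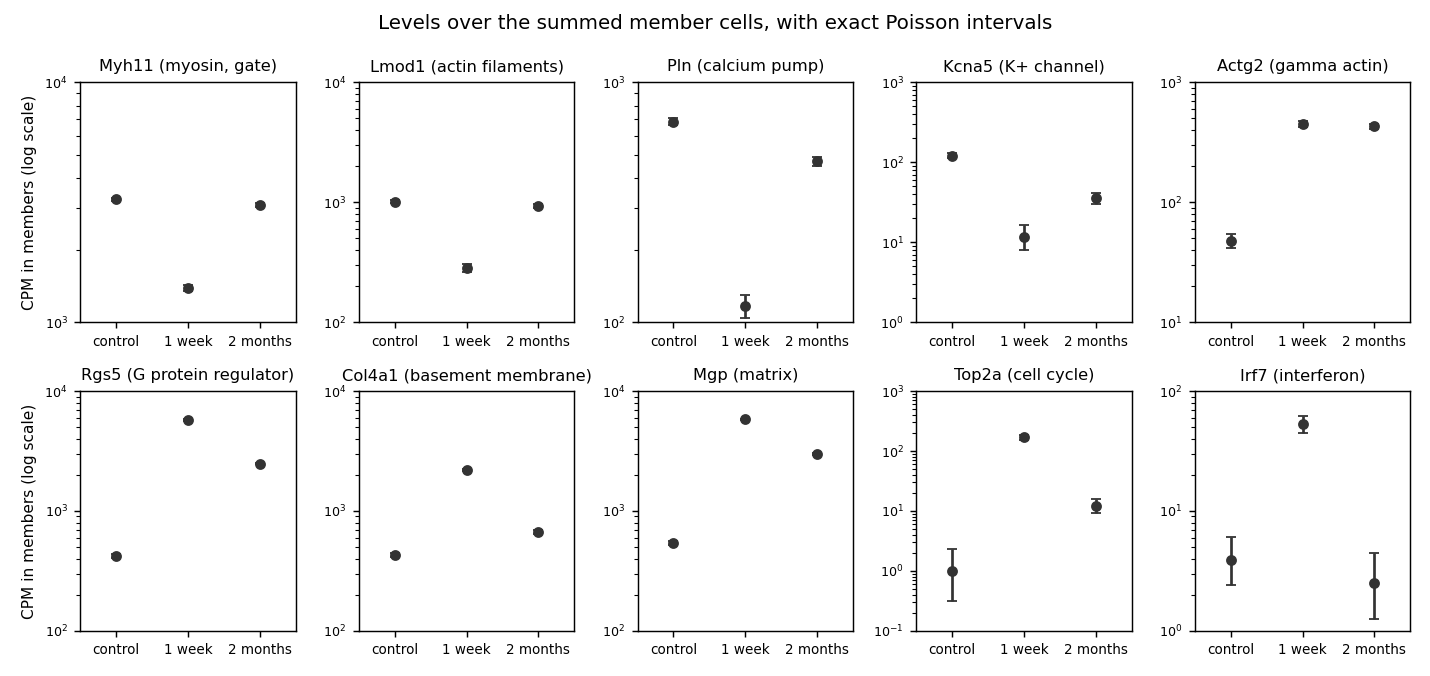
Levels of 10 genes in CPM (vertical axes, log scale, each with its own range) summed over members in the control, 1-week and 2-month libraries; points are single libraries and bars exact 95% Poisson intervals. Lmod1, Pln and Kcna5 are lowest at 1 week, Rgs5, Col4a1, Mgp, Top2a and Irf7 are highest at 1 week, and Actg2 is high at both times after DMM.

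Receptors for vasoactive signals differed from control in both directions. Of 17 measured at 1 week, 4 were at least 2-fold higher and 4 at least 2-fold lower than in control. Below 10 Rgs5 UMIs 0 of 13 were higher and 5 lower (median -0.71), and at or above it 1 of 14 was higher and 3 lower (median 0.11). Beside these, 10.7% of all genes were higher and 10.7% lower in all members. In the lower range 6.27% were higher and 11.1% lower, and in the upper 8.46% and 6.69%. The 1 of 14 was thus near the share over all genes. Npy1r, the receptor for the sympathetic cotransmitter neuropeptide Y, stood at 462, 98.4 and 299.9 CPM in control, 1-week and 2-month members. The alpha-1A adrenoceptor gene Adra1a stood at 29.8, 3.25 and 5.68 CPM, and the alpha-2A adrenoceptor gene Adra2a at 11.2, 103 and 54.5 CPM. Adra2a was read mainly in members with 10 or more Rgs5 UMIs, at 77.9, 131 and 140.2 CPM, so its ratio of 9.19 over all members at 1 week was 1.7 within that range. The soluble guanylate cyclase subunit gene Gucy1a1, which answers nitric oxide, was 0.509 times control at 1 week and 0.704 times at 2 months.

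Most transcription factors of the smooth muscle lineage were within 2-fold of control, with 4 of 21 higher and 2 lower at 1 week. Over all genes, 10.7% were higher and 10.7% lower. Myocd, myocardin, stood at 53.1, 44.5 and 85.0 CPM in control, 1-week and 2-month members, and the 1-week ratio of 0.837 had an interval that includes no difference (0.671 to 1.04). Klf4, a factor known to repress contractile genes in injured arteries, was 1.09 times control at 1 week and 0.999 times at 2 months, and was higher in endothelial cells and fibroblasts than in members in every library. Tbx2 was 0.463 and 0.494 times control. Of 12 Notch pathway genes, 3 were at least 2-fold higher and 2 lower at 1 week, beside the same shares over all genes. The Notch targets Nrarp and Heyl were 3.28 (2.96 to 3.65) and 2.73 times control at 1 week, while Hey2 was 0.501 times. The receptor Notch3 stood at 457, 487 and 485 CPM and the ligand Jag1 at 127, 123 and 121 CPM, both close to control in each library. Nrarp was 2.6 and 2.9 times control at 1 week in the lower and upper Rgs5 ranges.

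Genes of the synthetic state and the interstitial matrix were higher at both times after DMM. Of 34 synthetic-state and matrix genes, 27 were at least 2-fold higher and 2 lower at 1 week, with a median log2 ratio of 2.90. Beside this, 10.7% of all genes were higher and 10.7% lower. At 2 months 24 of 35 were higher and 1 lower, with a median of 1.74, where 5.69% of all genes were higher and 2.85% lower. Both ranges showed it: 26 of 31 genes were higher at 1 week below 10 Rgs5 UMIs (median 2.99), where 6.27% of all genes were, and 24 of 33 at or above it (median 1.48), where 8.46% were. At 2 months the counts were 26 of 33 and 14 of 30, where 3.98% and 4.2% of all genes were higher. Set against 1 week, 14 of 34 were at least 2-fold lower at 2 months and 2 higher, where 5.27% of all genes were lower and 6.54% higher.

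Mgp, the calcification inhibitor matrix Gla protein, stood at 545, 5815 and 2980 CPM in control, 1-week and 2-month members, 10.7 times control at 1 week (10.3 to 11.1) and 5.47 times at 2 months. Fibroblasts held 2136, 1321 and 1598 CPM of it and endothelial cells 1648, 377 and 1687 CPM, so the 1-week members stood above both. Col1a1 and Col3a1, the fibrillar collagens, were 12.1 and 9.18 times control at 1 week and 3.18 and 5.53 times at 2 months. Fibroblasts held 14064 CPM of Col1a1 at 1 week and endothelial cells 763 CPM, against 1977 CPM in members. Tenascin C, Tnc, stood at 6.08, 104 and 58.6 CPM in members. Osteopontin, Spp1, was at 0.980, 177 and 223 CPM in members, under the 1262 and 702 CPM of fibroblasts after DMM. Thrombospondin 1, Thbs1, was 2.36 and 2.89 times control and higher in members than in fibroblasts in all 3 libraries.

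Basement membrane genes, which mural cells and endothelium make together, were higher at both times after DMM. Of 33 genes 15 were at least 2-fold higher and 5 lower at 1 week (median 0.37), and 10 of 34 were higher and 0 lower at 2 months (median 0.46). The shares over all genes were 10.7% higher and 10.7% lower at 1 week, and 5.69% and 2.85% at 2 months. The type IV collagen gene Col4a1 stood at 428, 2202 and 672 CPM in control, 1-week and 2-month members, 5.15 times control at 1 week, beside 627, 2260 and 945 CPM in endothelial cells. Col18a1, whose end fragment is endostatin, stood at 211, 1184 and 446 CPM and was above the endothelial level in all 3 libraries. Col15a1 stood at 2.16, 171 and 29.3 CPM in members, 79.5 times control at 1 week (44.0 to 160.3), under the 176, 755 and 483 CPM of endothelial cells. Nidogen 1, Nid1, was 11.5 times control at 1 week and 3.60 times at 2 months. Itga8, an integrin of smooth muscle, went the other way at 1 week, at 0.410 times control. Elastin, Eln, was 1.22 and 1.21 times control, while the microfibril gene Fbn1 was 11.3 and 3.34 times.

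**Figure D4:**
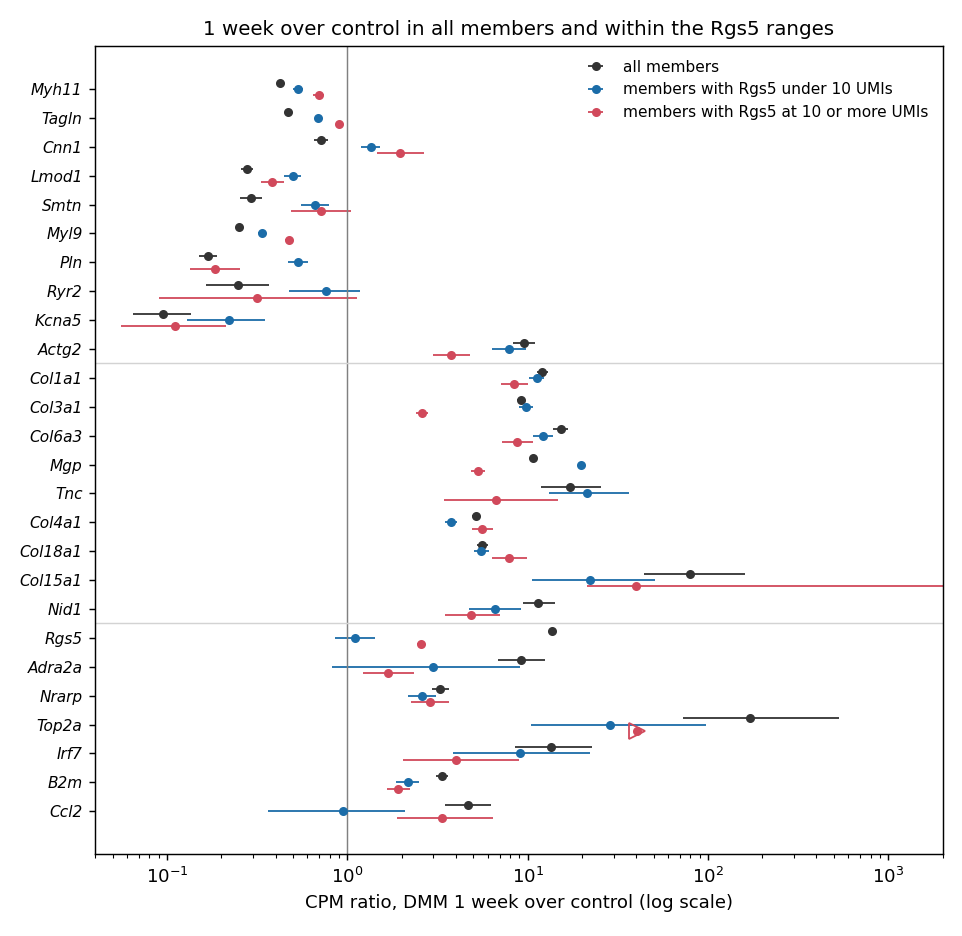
Ratio of CPM at 1 week over control (horizontal axis, log scale) for 26 genes, in all members and within members under or at 10 or more Rgs5 UMIs; points are ratios, lines 95% counting intervals, and an open triangle is a lower bound where control had 0 UMIs. Lmod1, Myl9 and Kcna5 lie left of 1 and the collagens right of 1 in every set, while Rgs5, Ccl2 and Cnn1 differ between the sets.

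Dividing-cell genes were read in the 1-week members. Of 25 proliferation genes, 24 were at least 2-fold higher at 1 week than in control and none lower, with a median log2 ratio of 5.67. Beside this, 10.7% of all genes were higher and 10.7% lower. Topoisomerase 2A, Top2a, stood at 0.980, 169 and 12.3 CPM in control, 1-week and 2-month members, from 5 UMIs in control, and Mki67 at 1.18, 128 and 12 CPM. After thinning, 10.2% of 1-week members held a Top2a UMI, against 0.746% of control members, while endothelial cells held it in 6.52% at 1 week and 2.82% in control. The reads came mainly from the upper Rgs5 range, where Top2a had 0 UMIs in control and was at 209 CPM at 1 week and 30.7 CPM at 2 months. Below 10 Rgs5 UMIs it was at 1.11, 31.6 and 1.78 CPM in control, at 1 week and at 2 months. Only 4 proliferation genes could be measured in that lower range.

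Interferon-response genes were higher at 1 week. Of 22 measured, 16 were at least 2-fold higher and 0 lower at 1 week (median 1.64), and at 2 months 2 of 16 were higher and 0 lower. The shares over all genes were 10.7% higher and 10.7% lower at 1 week, and 5.69% and 2.85% at 2 months. Irf7, a master factor of the type I response, stood at 3.92, 53.2 and 2.5 CPM in control, 1-week and 2-month members, 13.6 times control at 1 week (8.47 to 22.8). Isg15, a ubiquitin-like modifier, stood at 60.2, 191 and 33.4 CPM in members and at 354, 206 and 88.3 CPM in endothelial cells. B2m, the light chain of MHC class I, was 3.35 times control at 1 week and 2.01 times at 2 months. Within the Rgs5 ranges the count at 1 week was 3 of 13 genes below 10 UMIs (median 0.37) and 10 of 21 at or above it (median 0.94). In these ranges 6.27% and 8.46% of all genes were higher.

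Of 23 cytokine and chemokine genes, 8 were at least 2-fold higher and 4 lower at 1 week (median 0.59), and 11 higher and 1 lower at 2 months (median 0.76). The shares over all genes were 10.7% higher and 10.7% lower at 1 week, and 5.69% and 2.85% at 2 months. The 1-week median was -0.19 and -0.22 within the lower and upper Rgs5 ranges, over 17 measured genes in each, so its sign did not hold within them, and the cause was not tested. Ccl2, the monocyte-attracting chemokine, stood at 12.9, 60.4 and 130.5 CPM in control, 1-week and 2-month members, 10.1 times control at 2 months (7.80 to 13.2). Ccl2 was at 22.5, 75 and 342 CPM in members with 10 or more Rgs5 UMIs and at 11.7, 11.1 and 9.98 CPM in the others, so only the upper range held more of it. Il6 was 2.64 and 2.52 times control at 1 week and 2 months, and the neutrophil chemokine gene Cxcl2 0.620 and 0.234 times.

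Of 27 growth factor genes, 9 were at least 2-fold lower and 3 higher at 1 week over all members (median -0.46). Below 10 Rgs5 UMIs 7 of 25 were higher and 7 lower (median 0.43), and at or above it 0 of 18 were higher and 6 lower (median -0.35), so the sign of the median differed between the ranges. Beside these, 10.7% of all genes were lower and 10.7% higher in all members. In the lower range 6.27% were higher and 11.1% lower, and in the upper 8.46% and 6.69%. Neurotrophin 3, Ntf3, which supports the sensory and sympathetic nerves of vessels, stood at 132, 9.04 and 45.4 CPM in control, 1-week and 2-month members, 0.0687 times control at 1 week (0.0441 to 0.102). Fgf1 was 0.278 times control at 1 week and 0.611 times at 2 months. Of 29 TGF-beta and BMP genes, 6 were at least 2-fold higher and 0 lower at 2 months, where 5.69% of all genes were higher and 2.85% lower. Among them the BMP-induced inhibitor Id4 stood at 143, 135 and 388 CPM, and the BMP antagonist Chrdl1 at 6.08, 6.15 and 45.2 CPM, both above control at 2 months and not at 1 week. Ccn3, a matricellular protein that restrains smooth muscle growth, stood at 66.9, 33.6 and 320.2 CPM.

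By the rule for named genes, the 12 highest over control at 1 week were 11 cell-cycle genes, Top2a, Mki67, Pclaf, Hist1h1b, Birc5, Cdk1, Prc1, Ube2c, Hmmr, Tk1 and Ccnb2, and Col15a1. The 12 lowest were Chchd10, Timp4, Plin4, Tcap, Slc16a11, Angpt4, Mgll, Kcnj12, Ntf3, Slc22a3, Sox6os and Grip2. Timp4, an inhibitor of matrix metalloproteinases, stood at 587, 26.4 and 218 CPM in control, 1-week and 2-month members, 0.0450 times control at 1 week (0.0351 to 0.0567), with 28.7 CPM in all other control cells. The mitochondrial gene Chchd10 stood at 183, 6.87 and 71.1 CPM and was detected in 44.8%, 5.34% and 17.0% of thinned members. Both were low at 1 week and between the other libraries at 2 months. Plin4, a lipid droplet coat protein, was 0.0469 times control at 1 week, and Mgll, which splits monoacylglycerols, 0.0611 times. Sox6os is antisense to Sox6, and its reads cannot be told apart from those of Sox6, since the labels state no strand setting.

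At 2 months the 12 highest over control were Igfbp2, Hp, Nox4, Pappa2, Ccl19, Nts, Ifitm1, Ccl2, Col12a1, Tnc, Acan and Actg2. Igfbp2 and Pappa2 both act on insulin-like growth factors, as a binding protein and as a protease of binding proteins. Igfbp2 had 0 UMIs in control and stood at 15.9 CPM at 1 week and 41.8 CPM at 2 months, at least 71.1-fold higher at 2 months against a floor of 3 UMIs over the control members. Pappa2 stood at 5.10, 6.51 and 84.8 CPM in control, 1-week and 2-month members and was detected in 8.79% of thinned 2-month members, with 5.62 CPM in all other cells of that library. Nts, neurotensin, stood at 3.73, 3.98 and 60.9 CPM. Nox4, an NADPH oxidase of the vessel wall, was 18.4 times control at 2 months (10.5 to 35.1). Haptoglobin, Hp, stood at 4.12, 120 and 155 CPM, with 355 and 148 CPM in fibroblasts at 1 week and 2 months. Ccl19 has near-identical copies in the mouse genome and its reads could be split among them.

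The 12 lowest at 2 months were Gdpd3, Rergl, Igf2, Acss1, Fmod, Ccnb1ip1, Slc38a11, Tnmd, Kcna5, Lmo1, Adssl1 and Asb2. Gdpd3, a lysophospholipase, had 2 UMIs in 2-month members against 345 in control members, 0.454 and 67.6 CPM, and was low throughout that library, at 4.16 CPM in all other cells against 33.4 CPM in control. The amino acid transporter gene Slc38a11 was 0.273 times control (0.235 to 0.315) and the muscle ubiquitin ligase subunit gene Asb2 0.321 times. Between the times after DMM, the 6 highest at 2 months over 1 week were Nts, Tpm3-rs7, Pappa2, Npnt, Plin4 and Chchd10, and the 6 lowest were Gdpd3, Dlk1, Irf7, Cenpe, Ube2c and Agt. Tpm3-rs7 is a near copy of Tpm3, so its count is uncertain, and it was low throughout the 1-week library, at 51.7, 3.63 and 50.6 CPM in all other cells of the control, 1-week and 2-month libraries. Dlk1 was read mainly in the upper Rgs5 range, at 142, 386 and 36.3 CPM in control, 1-week and 2-month members.

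Members were set against mural cells outside the gate in 1 model over all genes, with the library as a block, so that each library gave 1 pair of sums. This was the only comparison with replicates, and it compares cell groups, not conditions. The replicates are the 3 libraries, each of another condition. Its residual spread therefore also holds any difference between conditions in the group difference. The pericyte-like cells first defined, with at least 10 Rgs5 UMIs and at most 1 of Myh11, numbered 46, 129 and 25 in control, 1-week and 2-month libraries. Prg4 led them at 94436, 11400 and 44251 CPM, a gene of lining fibroblasts, so the name pericyte did not hold for all of them. Cells with at least 10 Rgs5 UMIs, fewer than 5 of Myh11 and at most 2% of Prg4 were therefore used beside them, numbering 40, 330 and 47. They are called Rgs5-high cells here, and Myh11, Acta2 and Rgs5 were tested in neither comparison because they defined the groups. Genes that travel with these were also set apart by the choice, so calls among them are a description.

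Against the pericyte-like cells, 314 genes were higher in members and 212 lower at an adjusted p under 0.05 (edgeR quasi-likelihood test with Benjamini-Hochberg adjustment), 3.12% and 2.10% of 10077 genes. Against the Rgs5-high cells 441 were higher and 232 lower, 3.96% and 2.09% of 11125, and 270 and 60 of these were also called against the pericyte-like cells. The 12 highest folds over the pericyte-like cells were those of P2rx1, Pln, Cnn1, Susd5, Itga8, Tagln, Fbxl22, Myom1, Myl9, Map3k7cl, Kcnab1 and Lmod1. The 12 lowest were those of Ly6a, Has1, Ly6c1, Tspan15, Gfpt2, Htra4, Lbp, Rgcc, Col22a1, Prg4, F13a1 and Clic5, and 8 of these had the opposite sign against the Rgs5-high cells. Prg4 is among the 8. The limit on Prg4 applied to the Rgs5-high cells and not to members. The turn of Prg4, and of lining fibroblast genes that travel with it, is therefore no result apart from that limit. Calls rested on few libraries. Without the 2-month library the first comparison called 15 higher and 20 lower, and the second 334 and 131. Without the 1-week library the second comparison called 726 and 609, and without control 563 and 365.

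Against the Rgs5-high cells, 21 of 26 contractile genes were higher in members and 0 lower, with a median log2 difference of 1.74. Myh11 divided these groups, and Lmod1 went with it across thinned members. Their Spearman correlations were 0.37, 0.53 and 0.50 in control, 1-week and 2-month libraries. The direction for contractile genes was therefore set by the choice, and their values are no test of the label. Tagln was higher by a log2 difference of 2.70 (SE 0.19, adjusted p = 7.3e-05, edgeR), at 14084, 6628 and 12175 CPM in members against 2221, 1050.1 and 2082 CPM in Rgs5-high cells of control, 1-week and 2-month libraries. Lmod1 was higher by 2.45 (SE 0.23, adjusted p = 0.000223, edgeR). Myocd was higher by 3.40 (SE 0.30, adjusted p = 0.000197, edgeR) and Itga8 by 4.97 (SE 0.30, adjusted p = 4.42e-05, edgeR). Each of these 4 genes was higher in members in all 3 libraries. Of the calcium-handling genes 14 of 27 were higher and 0 lower, and of the ion channel genes 8 of 17 were higher and 2 lower. Ntrk3, a neurotrophin receptor, was higher by 5.79 (SE 0.48, adjusted p = 0.000153, edgeR).

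Pericyte markers went the other way against the Rgs5-high cells, with 6 of 13 lower in members and 1 higher (median log2 difference -0.63). Rgs5 divided these groups, and Higd1b and Kcnj8 went with it across thinned members. The direction of markers that travel with Rgs5 was therefore set in part by the choice, and their values are a description. Against the pericyte-like cells 3 of 13 were lower and 1 higher with a median of 0.55, so the sign of the median turned with the definition of the cells compared. Kcnj8 was lower, with a log2 difference of -2.54 (SE 0.33, adjusted p = 0.00174, edgeR), at 32.7, 82.8 and 69.8 CPM in members against 485, 260 and 379 CPM in Rgs5-high cells. The metalloreductase gene Steap4 was lower, at -2.79 (SE 0.38, adjusted p = 0.00214, edgeR). The marker that was higher in members was Cspg4, the NG2 proteoglycan, by 1.37 (SE 0.25, adjusted p = 0.0117, edgeR). Against the Rgs5-high cells interferon-response genes were lower in members in 7 of 24 and higher in 0, matrix genes lower in 7 of 35 and higher in 4, and cytokine genes lower in 5 of 28 and higher in 0. Against the pericyte-like cells the same lists had 4 of 22 lower and 0 higher, 3 of 35 lower and 1 higher, and 1 of 26 lower and 0 higher. Contractile genes were higher in 22 of 26 and lower in 0 there, with Myh11 again dividing the groups. Mgp did not pass the test (log2 difference -1.41, SE 0.42, adjusted p = 0.0903, edgeR), at 5815 CPM in members and 8437 CPM in Rgs5-high cells at 1 week.

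The members with 10 or more Rgs5 UMIs lay between the other members and the Rgs5-high cells in several genes, given as a description because Rgs5 and Myh11 divided the groups. Pln stood at 750.2 CPM in control members below 10 Rgs5 UMIs, 175 CPM in those at or above it and 12.4 CPM in the Rgs5-high cells. At 1 week the same groups held 400.2, 32.3 and 0.771 CPM, the last from 3 UMIs. Steap4 ran in the opposite order, at 9.29, 253 and 754 CPM in control. Kcnj8 stood at 22.8, 111 and 485 CPM in the same groups of control. Other pericyte markers did not follow. Cspg4 fell in this order in every library, at 158, 106 and 41.4 CPM in control. Notch3 was highest in the middle group after DMM, at 329, 534 and 440 CPM at 1 week and 343, 735 and 629 CPM at 2 months.

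**Figure D5:**
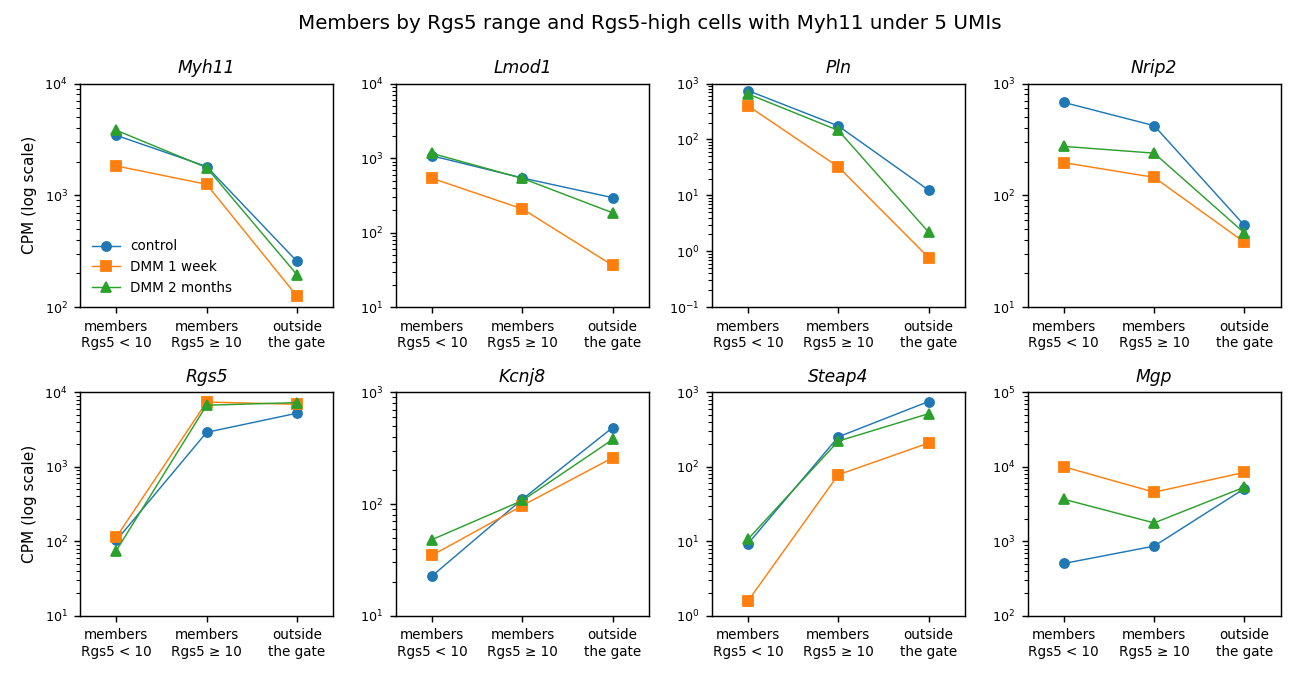
Levels of 8 genes in CPM (vertical axes, log scale) in members under 10 Rgs5 UMIs, members with 10 or more, and Rgs5-high cells outside the gate, with 1 line for each library. Pln, Lmod1 and Nrip2 step down and Kcnj8 and Steap4 step up from left to right in all 3 libraries, and Mgp differs most between libraries in the members under 10 Rgs5 UMIs.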

How the data were processed

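Knee synovium and fat pad of 3 pools of mice were profiled by 10x Genomics single-cell RNA-seq, 1 library per group. The deposited values are raw UMI counts per gene and barcode for 32285 genes, per the file headers. These headers give Cell Ranger 5.0.1 at 2 months, and 5.0.0 in both other files, whereas the submitters' processing notes name Cell Ranger 6.0.1 and mm10. No alignment or cell call was repeated. Passing barcodes numbered 8099 of 9003 in control, 12316 of 13986 at 1 week and 9782 of 10799 at 2 months, and library totals were 96782789, 179561680 and 159333121 UMIs.

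Members, gene lists and comparisons were chosen with earlier results of these data known. Counts were summed over members in each library and divided by the sum (CPM). Levels have exact Poisson intervals, shares Clopper-Pearson intervals and ratios exact conditional binomial or, for shares, Katz intervals, all at 95% and for counting error only. A list was described by genes with at least 50 UMIs in both sums together and a 2-fold difference. For a ratio, any sum under 3 UMIs was raised to a floor of 3 UMIs. Between conditions, the genes named were the 12 highest and 12 lowest ratios (6 and 6 between the times after DMM) among genes with at least 100 UMIs in both sums, at least 30 CPM in 1 of them, and a member CPM of at least 0.5 times that of all cells where higher. Against pericyte-like cells they were the 12 highest and lowest folds at adjusted p under 0.05 with 1 direction in all libraries and at least 50 CPM where higher. Mitochondrial, ribosomal protein, hemoglobin, sex-linked marker, predicted and antigen receptor genes were not named. Endothelial cells had at least 2 UMIs of Cdh5 and fibroblasts at least 2 of Pdgfra. For shares of cells with a UMI, each cell was thinned to 5000 UMIs and shallower cells were left out, which kept 536 of 618 control, 206 of 213 1-week and 330 of 337 2-month members. Doublets were not removed: Scrublet marked 12, 0 and 6 members.

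Sums of members and pericyte-like cells were compared with edgeR 4.0.16 (quasi-likelihood, library as block) in R 4.3.3, and with DESeq2 1.42.0 as an alternative. Each library gave both sums, which is where this pairing comes from, and the pools are not stated to be more than 1 sample each, so a p measures only the spread between these libraries. On simulated counts for that comparison over 10205 genes the test found 34% of 2-fold and 96% of 4-fold changes with 4 false calls. The simulation assumed a fixed spread, the same mean profile in every library and changes only in genes with many UMIs. These libraries differ in condition, so its figures need not hold for the data. Alternatives were other gates and filters, thinning, other count minimums, size factors, no replicate block and leaving out each library. Gene positions are from GENCODE vM21 and promoters from RefSeq. Python 3.11.15, scipy 1.17.1 and scanpy 1.11.5 were used.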

Additional observations from a re-analysis of the deposited data

How the results depend on the processing

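Of 27 alternative values of the 3 share ratios, 10 moved by less than counting error and 14 by more. The ratios at 1 week over control and at 2 months over 1 week were 0.158 and 2.65 with a gate at 10 Myh11 and 40 Acta2 UMIs, 0.293 and 1.61 with a gate at 3 and 10, and 0.192 and 2.4 after thinning. With a floor of 1000 genes and a ceiling of 5% mitochondrial UMIs, the ratios at 1 week over control, 2 months over control and 2 months over 1 week were 0.275, 0.291 and 1.06. Without members holding UMIs of Pecam1, Lum, C1qa or S100a8, the first 2 were 0.116 and 0.257. Under 10 Rgs5 UMIs, a division chosen after seeing the data like the Prg4 and Rgs5-high settings, the 3 ratios were 0.0681, 0.325 and 4.78. At 10 or more they reversed, to 1.76, 1.67 and 0.950.

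Counts of genes past 2-fold moved with the UMI minimum: at 200 UMIs they were 446 higher and 476 lower at 1 week, 239 and 116 at 2 months, and 242 and 183 between the times after DMM, and at 1 UMI 2113 and 1658, 1401 and 763, and 1280 and 1227. Under 10 Rgs5 UMIs 513 genes were higher at 1 week, 365 at 2 months, and 376 higher and 234 lower between the times. At 10 or more, 542 were higher and 429 lower at 1 week, 243 and 134 at 2 months, and 382 higher between the times. The stricter cell filter gave 447 lower at 2 months, and leaving out members with other cells' UMIs 605 higher at 1 week, 310 higher at 2 months, and 295 higher and 251 lower between the times. Of 660 alternative values of named genes, 653 kept side and direction, and Ccl2 at 2 months reversed to a log2 ratio of -0.23 under 10 Rgs5 UMIs. Of 592 list medians 4 reversed from a value past 1.5-fold: growth factors between the times to -0.14, cytokines at 1 week to -0.19 and -0.22, and proliferation between the times to 0.47. The cause was not tested.

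The test against pericyte-like cells, with the library as replicate block, called 314 higher and 212 lower. With no replicate block it called 108 and 39, with no filter 898 and 711, with DESeq2 402 and 312, and leaving out 1 library between 15 and 857 higher and 20 and 856 lower. Other definitions gave 561 and 609 (Rgs5 at 5 or more, Myh11 at 0), and 487 and 385 with members under 10 Rgs5 UMIs only. Without pericyte-like cells over 2% Prg4, Has1, Ly6c1, Htra4, Prg4 and Clic5 reversed, to 0.81, 0.24, 0.86, 0.90 and 0.61. Against the Rgs5-high cells, Has1, Htra4, Lbp, Rgcc, Col22a1, Prg4, F13a1 and Clic5 reversed, to 0.21, 0.66, 0.42, 0.089, 0.077, 1.07, 0.29 and 1.04. Both settings limited Prg4 in the cells compared and not in members, which bears on Prg4 and genes that travel with it. No paired analysis was possible between conditions because each is 1 library with no shared replicate.

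With 1 pool per condition, differences between mice, litters, ages, sexes or runs cannot be told apart from DMM. Members after DMM were few, 213 and 337, so genes under about 30 CPM rest on few UMIs. Foreign RNA and the low edge of the gate touch the genes named beside them.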

Other observations

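Genes of the circadian clock differed between the libraries in members. Of 18 clock genes measured at 2 months, 6 were at least 2-fold higher than in control and 1 lower. Beside this, 5.69% of all genes were higher and 2.85% lower. Nr1d1, a clock repressor, stood at 8.23, 39.4 and 60.2 CPM in control, 1-week and 2-month members, and Dbp, a clock output factor, at 8.43, 4.70 and 39.3 CPM. Nr1d1 was also higher after DMM in endothelial cells, at 25.4, 76.0 and 89.5 CPM, and in fibroblasts, at 14.8, 39.4 and 77.9 CPM. The hour of harvest is not given in the sources used here.

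Glycolysis and cholesterol genes differed little. Of 22 glycolysis and hypoxia genes 3 were at least 2-fold higher and 0 lower at 1 week, and of 18 cholesterol and lipid genes 1 was higher and 1 lower. Beside these, 10.7% of all genes were higher and 10.7% lower at 1 week, and 5.69% and 2.85% at 2 months. Immediate-early and stress genes, which tissue digestion is known to induce, had 0 of 30 higher and 2 lower at 1 week and 3 higher and 0 lower at 2 months. At 1 week 3 of 30 were higher and 0 lower below 10 Rgs5 UMIs (median log2 ratio 0.13), and 0 of 29 higher and 11 lower at or above it (median -0.83). In the lower range 6.27% of all genes were higher and 11.1% lower, and in the upper 8.46% and 6.69%. The fatty acid binding protein gene Fabp4 stood at 1371, 1988 and 593 CPM in control, 1-week and 2-month members and at 12183, 4688 and 4961 CPM in endothelial cells.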
